A study of Homo sapiens with 2 samples.

Results

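Genes of the cytoskeleton, cell adhesion and invasion were examined for contacts of SNRPA1 with their RNA. SNRPA1 is the U2 A′ protein, a subunit of the U2 snRNP, which binds the branch site of introns during splicing. The 48 genes were named individually and chosen with earlier results from these data known, out of 20052 protein-coding genes in the RefSeq table. They fall into 3 role groups: 25 plakins, actin linkers and their partners, 14 integrin and matrix genes, and 9 genes of growth factor signalling or proteolysis in breast cancer invasion. The integrin and matrix group includes the adhesion kinase gene PTK2 and the adaptor genes PXN and TNS3. All 48 are protein-coding, and all were found in the RefSeq table by symbol.

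The data come from irCLIP, an assay that crosslinks proteins to the RNA they touch, pulls down one of them and sequences the attached fragments. The antibody was raised against SNRPA1 and bound the endogenous protein. The cells were MDA-231-LM2, an established line derived from MDA-MB-231 breast cancer cells by selection for growth in the lung. There were 2 biological replicates in 1 group, and no control precipitate or input entered the analysis. The deposited peak lists do not separate the replicates, so no spread between replicates and no test between conditions can be given. One list gives peak heights in tags and an Entrez gene identifier for 1373 distinct intervals, and is called the height list below. The other, from the caller CLIPper, gives reads per interval and an Ensembl identifier for 7651 distinct intervals. Library totals are unknown. RNA abundance was not measured in these files, so a gene with few peaks cannot be told apart from a gene with little RNA.

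Plakins are giant linkers that tie actin, microtubules and intermediate filaments to each other and to junctions. Alpha-actinins, spectrins and capping proteins shape the actin network beneath the membrane, and integrins couple it, through talin and focal adhesion kinase, to laminin and fibronectin outside the cell. Growth factor receptors and membrane proteases act on the same adhesions when carcinoma cells invade. Many of these genes are known for alternative splicing, as in CD44, FN1, ITGA6, MACF1 and DST.

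Peaks were present in some members of each role group, and most were low. Of the 48 genes, 14 held a height-list peak (29.2%), against 6.02% of all protein-coding genes. Because the genes were chosen with earlier results known, this share describes them and is no test of the list. The 14 genes held 17 peaks, with 2 each in MACF1, ACTN4 and PTK2 and 1 in each of the other 11. Among all protein-coding genes with a peak, 10.4% held 2 or more. Peaks of 31 to 35 nt lay on 12 chromosomes, 11 on the plus strand and 6 on the minus strand.

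Gene length differed between the groups compared. The 48 genes had a median length of 98.6 kb, against 24.1 kb over all protein-coding genes, and the 14 with a peak had a median of 166 kb, against 80.1 kb in the 34 without. Among genes of at least 100 kb, 10 of the 24 members held a peak (41.7%), against 21.8% of all protein-coding genes of that length. Below 100 kb the count was 4 of 24 (16.7%), against 2.85%. The members' shares were thus above the shares of all genes in both length classes. The part of length within each class was not tested.

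**Figure D1:**
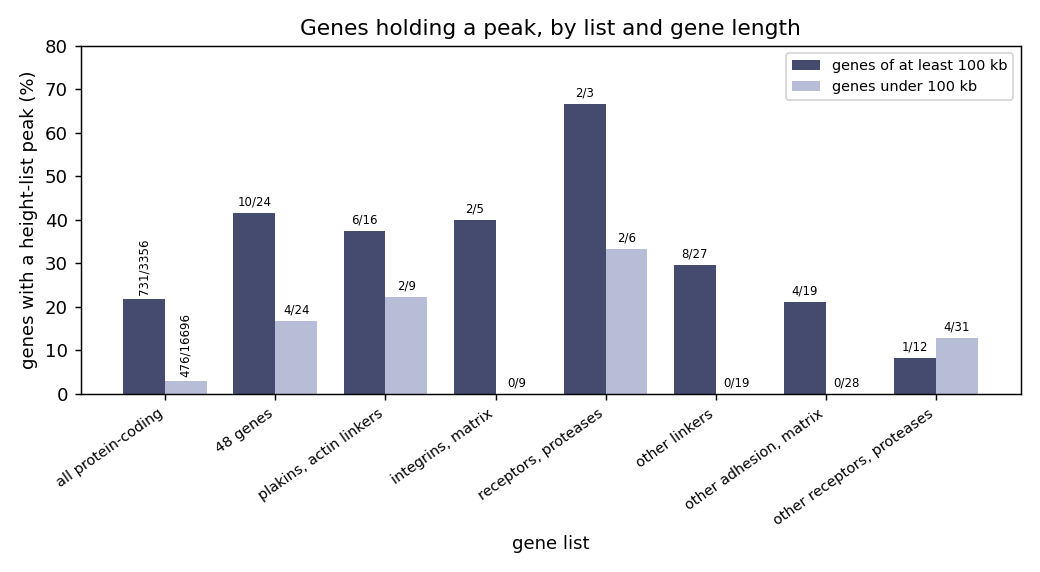
Share of genes with a height-list peak (vertical axis, percent) in each gene list (horizontal axis), with genes of at least 100 kb in dark bars and shorter genes in light bars. Numbers above the bars give genes with a peak over genes in the list, such as 10 of 24 long members and 4 of 24 short ones.

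The plakin and actin linker group, the largest of the 3, held 10 of the 17 peaks. They lay in 8 of its 25 genes (32%, against 6.02% of all protein-coding genes). Among its genes of at least 100 kb, 6 of 16 held a peak (37.5%, against 21.8%), and below that 2 of 9 did (22.2%, against 2.85%). Per length the group had 1.84 peaks per Mb of gene, against 5.97 in the signalling and protease genes and 1.05 over all protein-coding genes. The 5.97 rests on only 4 peaks in 9 genes, 1 of them in MMP14 at 11.2 kb. MACF1 (Entrez 23499), which encodes a spectraplakin joining actin to microtubules, had the tallest peak of all the members at 14 tags (chromosome 1 of hg19, 39699451 to 39699482, plus strand), with a 95% Poisson interval of 7.65 to 23.5. It also held a peak of 5 tags (1.62 to 11.7) at 39698423 to 39698454, with 1028 nt between the centres. The intervals for the 2 MACF1 peaks overlap. Of the height list's 1373 intervals, 87 (6.34%) were at least as high as the taller MACF1 peak, which was also the only member peak of 10 tags or more, 1 of 17 against 10.2% of the list. DST (Entrez 667), the other spectraplakin gene, held a single peak of 3 tags (0.619 to 8.77; chromosome 6, 56394819 to 56394853, minus strand). That interval is listed a second time under RNU6-71P, a U6 pseudogene that the RefSeq table places on another chromosome, so its gene of origin is uncertain.

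The members of this group with a peak other than MACF1 and DST had between 3 and 6 tags. ACTN4 (Entrez 81), which encodes the alpha-actinin that crosslinks actin in motile cells, had peaks of 5 and 4 tags on chromosome 19, plus strand, at 39217455 to 39217487 and 39211816 to 39211849. Its paralog ACTN1 was listed without a peak. CAPZA2 (Entrez 830), the alpha subunit gene of the protein that caps actin filament barbed ends, had 6 tags (2.20 to 13.1; chromosome 7, 116543377 to 116543407, plus strand). SPTBN1 (Entrez 6711), the beta-spectrin gene of the membrane skeleton, had 5 tags (1.62 to 11.7; chromosome 2, 54808717 to 54808748, plus strand), while SPTAN1, the gene of its alpha-spectrin partner, had no listed peak.

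ABLIM1 (Entrez 3983), an actin-binding LIM protein gene, had 4 tags (chromosome 10, 116400998 to 116401028, minus strand). DIAPH1 (Entrez 1729), a formin gene whose product elongates actin filaments, also had 4 (chromosome 5, 140957887 to 140957920, minus strand). MYH10 (Entrez 4628), the non-muscle myosin IIB heavy chain gene, had 3 (chromosome 17, 8496129 to 8496161, minus strand), and MYH9, the gene of the IIA heavy chain, had none listed. Counting error alone gives 1.09 to 10.2 for a peak of 4 tags and 0.619 to 8.77 for a peak of 3. The 17 members of this group without a listed peak were DSP, SPTAN1, ANK3, UTRN, ACTN1, FLNA, FLNC, VIM, MYH9, MYO1E, MYO10, DIAPH3, TLN1, TLN2, VCL, CTNNA1 and CTNND1. They include ANK3 at 707 kb and UTRN at 568 kb, both longer than MACF1 at 403 kb.

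Among the integrin and matrix genes, 2 of 14 held a peak (14.3%, against 6.02% of all protein-coding genes), with 3 peaks in all. Per length this was 1.76 peaks per Mb of gene, against 1.05 over all protein-coding genes. Among its genes of at least 100 kb, 2 of 5 held a peak (40%, against 21.8% of all protein-coding genes of that length). Below 100 kb 0 of 9 did, against 2.85%. The group also takes in the kinase gene PTK2, which held 2 of the 3 peaks. Among its integrin, CD44, laminin and fibronectin genes, only ITGA2 held a peak. PTK2 (Entrez 5747), which encodes focal adhesion kinase, had 7 tags (2.81 to 14.4) at chromosome 8, 141704433 to 141704464, minus strand, and a second peak of 4 tags (1.09 to 10.2) at 141973594 to 141973626, 269 kb away. Their intervals overlap. ITGA2 (Entrez 3673), which encodes the alpha subunit of a collagen-binding integrin, had 4 tags (1.09 to 10.2; chromosome 5, 52381515 to 52381548, plus strand). No peak was listed for the other integrin genes ITGA3, ITGA6, ITGAV, ITGB1 and ITGB4, for the hyaluronan receptor gene CD44, for the laminin genes LAMA3, LAMB3 and LAMC1, for FN1 (fibronectin), or for the adhesion adaptor genes PXN and TNS3. In the height list, the alternatively spliced genes CD44, FN1 and ITGA6 were therefore without a called site. They are 93.2, 75.2 and 79.1 kb long, and only 2.85% of all protein-coding genes under 100 kb held a peak. MACF1, named above with them as alternatively spliced, did hold peaks. DST, also named there, held 1 of 3 tags whose gene of origin is uncertain.

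Among the signalling and protease genes, 4 of 9 held 1 peak each (44.4%, against 6.02% of all protein-coding genes). By length this was 2 of 3 genes of at least 100 kb (66.7%, against 21.8%) and 2 of 6 shorter ones (33.3%, against 2.85%). The count rests on low peaks: 0 of the 4 genes kept one with P under 1e-5, and 1 did with at least 5 tags. Over the whole height list, 47.6% of intervals had P under 1e-5 and 40.2% had at least 5 tags. With only 4 peaks, the group cannot be told apart from the list in this. MMP14 (Entrez 4323), which encodes a membrane-anchored collagenase of invasive cells, had 6 tags (2.20 to 13.1; chromosome 14, 23316240 to 23316272, plus strand) in a gene of only 11.2 kb. It was the shortest of the 14 genes with a peak. EGFR (Entrez 1956), the epidermal growth factor receptor gene, had 4 tags (1.09 to 10.2) at chromosome 7, 55135455 to 55135487, plus strand. ABL1 (Entrez 25), a tyrosine kinase gene, had 3 (chromosome 9, 133722291 to 133722324, plus strand), and TGFBR2 (Entrez 7048), the type II TGF-beta receptor gene, had 3 (chromosome 3, 30735332 to 30735365, plus strand). The receptor kinase genes AXL and MET and the secreted or nuclear factors MMP1, SPARC and ID1 had no listed peak. Of those 5 genes, MET is the longest at 126 kb and ID1 the shortest at 1.22 kb.

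The member peaks were about as tall as those of the list. Their median was 4 tags, as over the whole height list, and the median of the tallest peak per gene was 4 tags both in the 14 members and in the 1207 protein-coding genes with a peak. At least 5 tags were reached by 7 of 17 member peaks (41.2%), against 40.2% of the list. The group medians were 4.5 tags in the linkers, 4 in the integrin and matrix genes and 3.5 in the signalling and protease genes, and the counting intervals of all 17 peaks overlap.

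**Figure D2:**
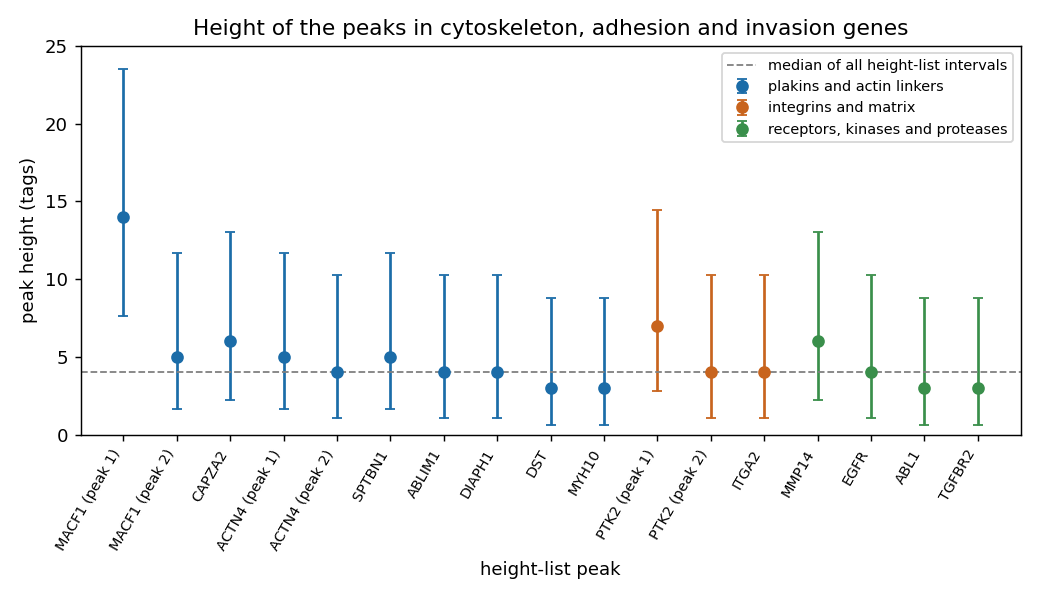
Height in tags (vertical axis, linear) of each of the 17 height-list peaks in the 14 genes (horizontal axis), coloured by role group, with 95% Poisson intervals as bars; the dashed line is the list median of 4 tags. The taller MACF1 peak, at 14 tags, is the only one whose interval lies wholly above that line.

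The deposited P separated peaks of equal height. The lowest P of the list, 1e-100, was given to the taller peak of MACF1, the taller peak of PTK2 and the peak of CAPZA2, 3 of 17 (17.6%) against 19.3% of all intervals. MMP14, as tall as CAPZA2 at 6 tags, had 3.11e-05, and its deposited background height of 0.04 tags was the highest among the member peaks. Among the 3-tag peaks P was 0.00244 in DST, 0.0154 in MYH10, 0.0216 in ABL1 and 0.0491 in TGFBR2, the last close to the list's highest P of 0.0494. These are the authors' own values and were used here only to describe and filter peaks within the list.

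Every member peak had a counterpart in the CLIPper list. All 17 overlapped a CLIPper interval on the same strand, but so did 1335 of the 1373 intervals of the whole height list. At the member peaks the CLIPper summit lay at most 7 nt from the centre of the height-list peak, with a median of 1 nt. That distance was not measured over the whole list. Since the lists share their libraries, this overlap is no replication. Each of the 14 genes met exactly 1 Ensembl identifier in this way, which named its CLIPper intervals, and in all 14 the chromosome matched that of the RefSeq table. For the 34 members without a height-list peak, CLIPper intervals were not analysed here, because no table at hand pairs their Ensembl identifiers with symbols.

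At the shared sites the median was 7 reads in the members, as over all 1335 shared intervals, and 6 of 17 sites had at least 10 reads (35.3%, against 32.8% of shared intervals). CAPZA2 departed from the rest with 100 reads at its 6-tag peak, a ratio of 16.7 reads per tag. A ratio of 10 or more occurred in 0.824% of shared intervals, and the ratio in CAPZA2 was the 4th highest. MYH10 followed among the members with 11 reads for 3 tags (3.67 per tag), and MACF1 had 44 reads for 14 tags (3.14 per tag). At the other 14 sites the ratio lay between 1 and 2.20. The members' median ratio of 1.67 was that of all shared intervals. How CLIPper's input treated repeated reads is not stated in the sources used here.

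**Figure D3:**
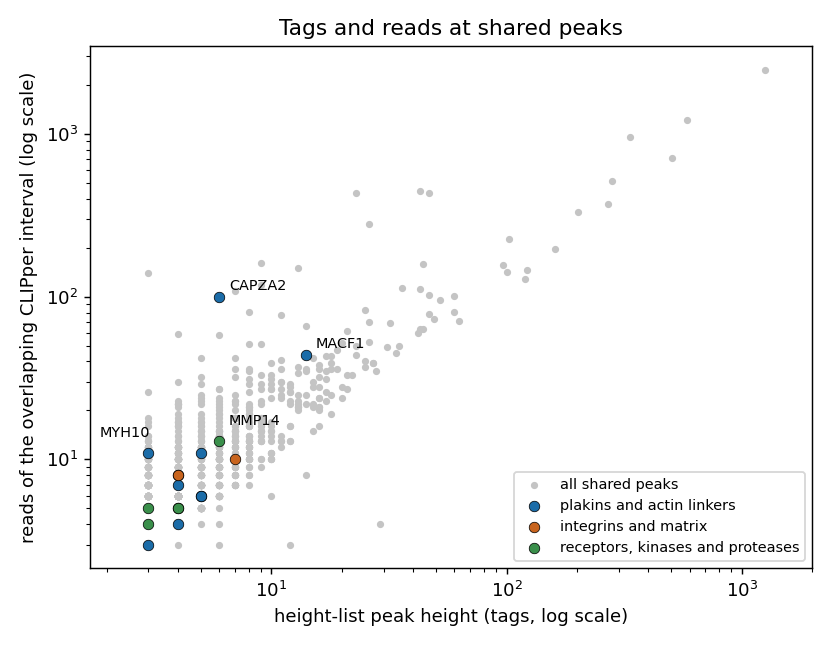
Reads of the overlapping CLIPper interval (vertical axis, log scale) against height in tags (horizontal axis, log scale) for all 1335 shared peaks in grey and the 17 member peaks in the colour of their role group. CAPZA2 stands high for its height with 100 reads at 6 tags, while MACF1 at 14 tags and 44 reads lies within the grey cloud.

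In several members CLIPper marked further sites that the height list lacks. The 14 genes held 39 CLIPper intervals, of which 18 lay on a height-list peak and 21 did not. The share on a peak was 46.2%, against 58.2% of the CLIPper intervals in 1041 protein-coding genes named in the same way. More than 1 interval was present in 7 of the 14 genes, against 53.8% of those 1041. ABL1, ABLIM1, CAPZA2, DIAPH1, DST, SPTBN1 and TGFBR2 had only the interval on their peak. The 21 intervals without a peak had 3 to 10 reads, with a median of 4.

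Of these 21 intervals PTK2 and EGFR held 6 each. With neighbours within 50 nt joined, the 21 formed 18 sites, 5 of them in PTK2 and 4 in EGFR. PTK2 had the most CLIPper intervals of the members, 8 over 292 kb, and 1.06% of the 1041 genes had as many. One of its 6 intervals without a height-list peak, at 141938036 to 141938075, had 10 reads, as many as the site of its taller peak. EGFR had 7 intervals over 159 kb, and its strongest reads were not at its peak: the abutting intervals 55190087 to 55190093 and 55190094 to 55190123 had 7 reads each, against 5 at the peak. In the other 13 members the strongest CLIPper interval lay on a height-list peak, in PTK2 as a tie. Over the 1041 genes the strongest interval did so in 89.2%.

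The remaining genes with several intervals differed in spread. ACTN4 had 5, of which 4 lay within 5.64 kb of its taller peak and 1, with 5 reads, lay 53.7 kb upstream of it. MACF1 had 4 over 227 kb, with 3 and 6 reads at the 2 sites that lack a height-list peak. MMP14 had 3, with 8 reads at a site 8.09 kb upstream of its peak and 4 reads 0.881 kb upstream. ITGA2 had 3, with 7 reads 3.44 kb downstream of its peak and 3 reads 21.3 kb upstream. MYH10 had 2, the second with 4 reads lying 106 kb downstream. Per length, MMP14 had the densest CLIPper intervals, 268 per Mb of gene, followed by ACTN4 at 59.6, while DST had 2.01. EGFR came next at 36.3, but with neighbours within 50 nt joined it had 26.0, below ITGA2 at 28.5. MMP14 is the shortest of these genes, and its density rests on 3 intervals.

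**Figure D4:**
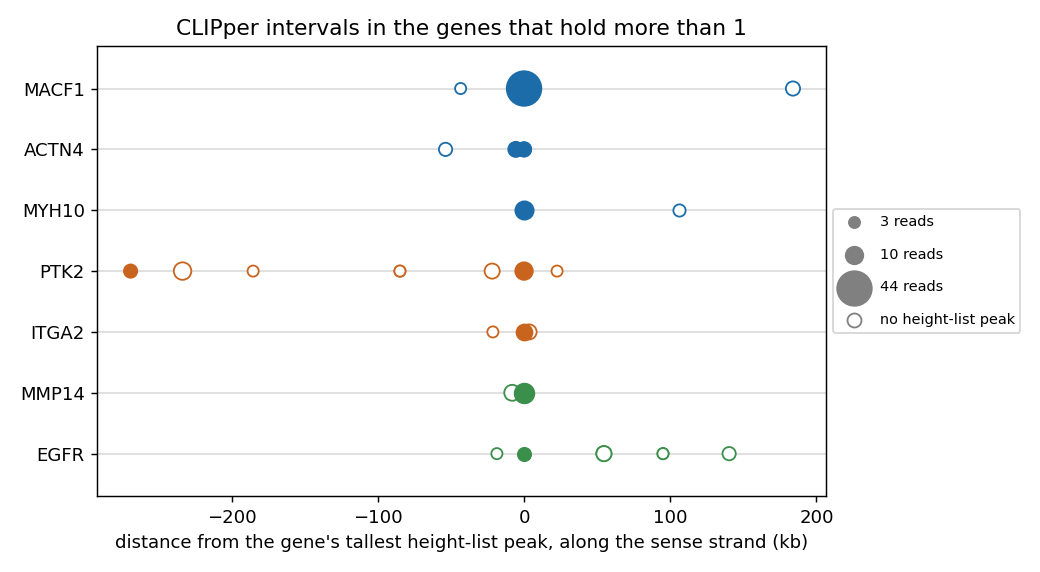
Position of each CLIPper interval in the 7 genes with more than 1 (vertical axis), as the distance in kb along the sense strand from the gene's tallest height-list peak (horizontal axis). Circle area grows with reads, filled circles lie on a height-list peak and open ones do not, and neighbours under a few kb apart coincide, as for the 2 MACF1 peaks. PTK2 and EGFR spread over 292 and 159 kb, and MMP14 over 8.12 kb.

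Whether these sites lie in exons, introns or untranslated regions, and which sequences they hold, was not analysed here, since no genome of the hg19 build was used. By containment in the RefSeq table, 0 of the 48 genes held a copy of the U2 snRNA gene. U6 copies lay in MACF1, DST and MYO1E, and a 7SL copy lay in DIAPH3. The share of all protein-coding genes with such copies is not given here, so these counts describe the 48 genes only. Whether a member peak lies on one of these copies was not analysed.

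Other genes of the same pathways, 136 in all, were counted in the same way, and the difference from the 48 genes was not tested. A height-list peak was listed for 17 of them (12.5%): 8 of 46 other linker genes, 4 of 47 other adhesion and matrix genes and 5 of 43 other signalling and protease genes. In genes of at least 100 kb the count was 13 of 58 (22.4%), against 21.8% of all protein-coding genes, and below 100 kb it was 4 of 78 (5.13%), against 2.85%. They included DIAPH2, a formin gene, with peaks of 10 and 4 tags, and SYNE2, a nuclear envelope linker gene, with 7. ENAH had 2 peaks of 5 tags, ANK1 had 1 of 5, ANK2 had 1 of 4, and DMD (dystrophin) and FMNL2 had 1 of 3 each. LPP had 6 tags, PARVA (parvin) 4, and COL12A1 and LAMA4 3 each. ERBB2 had 5 tags, SMAD3 had peaks of 5 and 4 tags, and the protease inhibitor gene TIMP3 had 4 tags. PDGFRA was assigned 2 peaks of 4 tags, 746 kb apart although the gene is 69.0 kb long. At least 1 of them lies outside the gene, and PDGFRA is kept in the count of 17.

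Of 17 cell type markers, 2 held a peak (11.8%), against 6.02% of all protein-coding genes and 12.5% of the other pathway genes. The epithelial and luminal markers among them need not mark another cell type, since the line comes from breast cancer. The neuronal genes SYT1 and RBFOX3 each had a peak of 4 tags, 2 of 4 in that list. The short lists of epithelial and luminal, leukocyte and endothelial markers gave 0 of 6, 0 of 4 and 0 of 3. SYT1 is 588 kb and RBFOX3 576 kb long. Their peaks were as tall as those of EGFR, ITGA2, ABLIM1 and DIAPH1, so peaks of 4 tags also occurred in genes that mark a cell type other than the one profiled. Their part in the members' counts was not tested.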

How the data were processed

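SNRPA1 irCLIP libraries of 2 replicates in 1 group were described from both deposited peak lists. Per the submitters' processing notes, cutadapt 1.10, BWA 0.7 and build hg19 were used. The height list's deposited signal is each peak's height in tags. Its name marks it as pooled, and the sources used here do not state its caller. In the CLIPper list the deposited column is a p-value per interval, with reads taken from the interval's name. Depth per replicate is unknown. Repeated intervals were counted once in list totals. Entrez identifiers were named by the RefSeq table of GRCh38.p14, used for names, lengths and containment only, and Ensembl identifiers through a height-list peak that shares at least 1 nt of the strand. Positions are 1-based hg19.

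The members and lists were chosen with earlier results of these data known. Every member with a peak is named, the others as having none, and of other lists at most 8 members with a peak, by height, some of which are not reported here. No test was run. Poisson intervals (95%) cover counting error only, and tags need not be independent molecules. The code was tested on simulated intervals. Alternatives covered P, height, reads, joining, overlap and shared intervals, and the split at 100 kb was chosen after the values were seen. Scripts ran in Python 3.11.15 (pandas 2.3.3, numpy 2.4.6, scipy 1.17.1), with figures from matplotlib 3.10.9.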

Additional observations from a re-analysis of the deposited data

How the results depend on the processing

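Of 24 alternatives, 12 left their result within the limits set, and 12 moved it, all by stricter thresholds that keep fewer peaks by construction. Results within the limits were not always unchanged. The members' median tallest peak went from 4 to 5.5 tags with P under 1e-5. Members with a CLIPper interval went from 14 to 11 with at least 5 reads. With only peaks of P under 1e-5, members with a peak fell from 14 to 6 (12.5%, against 2.93% of protein-coding genes), the linkers from 8 to 5, the integrin and matrix genes from 2 to 1, the signalling and protease genes from 4 to 0 and the other pathway genes from 17 to 11. With only peaks of at least 5 tags the same counts were 6 (12.5%, against 2.40%), 4, 1, 1 and 9. Both settings kept 5 members in common, with ABLIM1 kept only by the first and MMP14 only by the second. With only intervals assigned to 1 gene, members with a peak went from 14 to 13, against 5.65% of protein-coding genes. DST was the member lost, and the linkers went from 8 to 7. With CLIPper p under 1e-5, 7 of 14 members and 10 of 39 intervals remained. The share of the whole CLIPper list kept at that threshold was not counted, so this loss cannot be called particular to the members. Joining intervals within 50 nt left 35, and all 17 peaks overlapped the CLIPper list under each definition of overlap. The role group, other pathway and peaks per gene alternatives were chosen after seeing the data. Depth is unknown and limits every count. Replicates could not be left out, since the lists do not keep them apart. No paired analysis was possible because there is only 1 group.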

Other observations

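CLIPper split some sites of the members into abutting intervals. This occurred 4 times, in EGFR (2 pairs), ACTN4 and PTK2, and each time an interval of 7 or 8 nt was followed, in order of increasing hg19 position, by a longer one of 23 to 30 nt with the same reads. Over the whole CLIPper list there were 1132 abutting pairs, and in 899 of them (79.4%) only the interval at the lower position was 10 nt or shorter, against 48 (4.24%) where only the one at the higher position was. The short interval lay at the lower position in 85.2% of 621 pairs on the plus strand and 72.4% of 511 on the minus strand, so its place did not turn with the strand. The cause was not tested.

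The 2 peaks assigned to PDGFRA lie 746 kb apart, although the gene is 69.0 kb long in the RefSeq table, so at least 1 of them lies outside the gene as that table gives it. In the 14 members the span of all CLIPper intervals was at most 84.8% of the gene's length, but 7 of them held only 1 interval. A span below the gene's length does not by itself place the intervals inside the gene. Of 1444 height-list entries with a named gene, 5 lay on a chromosome other than that of the gene in the table, among them RNU6-71P at the DST peak.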
